A study of Mus musculus with 6 samples.

Results

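The distal part of the Dlk1-Dio3 imprinted region carries a dense row of microRNA (miRNA) genes, from Mir379 at its start to Mir3072 at its end. Its mature products were followed in primary dermal fibroblasts of newborn mice, and were chosen by name and chromosomal position, not by their values. Earlier results of these data were known when the choice was made. They make up 77 of the 1907 miRNA names counted, from 39 precursors. The study compared fibroblasts with a constitutively active form of Nrf2 (caNrf2), the transcription factor that drives antioxidant and detoxifying genes, with fibroblasts without it (ctrl). The genotypes were Col1a2Cre-caNrf2 and Col1a2Cre-wt, so both groups carried the Cre recombinase under the Col1a2 promoter, a collagen gene promoter active in fibroblasts. Each group had 3 libraries, each from a different mouse of mixed C57Bl/6 and FVB/N background, and the cells were grown for 6 days and used at passage 1. Nrf2 messenger RNA is not among the counted molecules, so these libraries give no check of the transgene or of the share of cells that recombined.

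A miRNA is cut from a hairpin precursor that has a 5p and a 3p arm, and either arm can be loaded into Argonaute to repress messenger RNAs, chiefly through its seed, bases 2 to 8. In the Dlk1-Dio3 region the non-coding RNAs Meg3, Rian and Mirg and the miRNAs are made from the maternal chromosome, while Dlk1, Rtl1 and Dio3 are made from the paternal one. The row that starts with miR-379 is best known from brain, placenta and muscle, where it is thought to be cut from long transcripts of the maternal strand and where its loss disturbs the newborn's glucose supply.

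On the mm10 build the 39 precursors lie within 38.9 kb of chromosome 12, between 109709060 and 109747960. In the GENCODE annotation 38 are on the plus strand and 1, Mir299b, is on the minus strand inside Mir299a. The first 25, Mir379 to Mir544, lie upstream of the annotated long non-coding RNA gene Mirg (109729764 to 109749460) and in no host gene of their strand, and the last 14, Mir382 to Mir3072, lie inside it. Of those 14, Mir134, Mir485, Mir377 and Mir410 are wholly exonic in Mirg, 4 in all. Mir382, Mir668, Mir412, Mir369 and Mir3072 lie partly in Mirg exons. The other miRNAs of the region, 33 names from Mir770 to Mir370 that are called proximal here, end 90.7 kb upstream.

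RefSeq (GRCm38.p6) held the mature sequence of 73 of the 77 members; miR-376c-3p, miR-485-5p, miR-487b-3p and miR-539-3p were not matched. The sequences of the members that changed are shown first, 5′ to 3′ with the seed in capitals, because they show that these miRNAs do not form one seed family. The 9 changed members with a sequence had 9 different seeds:
miR-411-5p: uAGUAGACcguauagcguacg
miR-381-3p: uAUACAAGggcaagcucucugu
miR-300-3p: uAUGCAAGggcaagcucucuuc
miR-134-5p: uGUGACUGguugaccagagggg
miR-299a-3p: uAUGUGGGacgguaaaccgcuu
miR-376b-3p: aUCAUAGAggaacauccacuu
miR-379-3p: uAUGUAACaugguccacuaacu
miR-485-3p: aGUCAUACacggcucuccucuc
miR-666-3p: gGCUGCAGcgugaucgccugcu

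Several members resemble each other closely, which bears on how reads can be assigned. The sequence of miR-299b-5p is that of miR-299a-5p without its first base. That of miR-299b-3p is the first 18 bases of miR-299a-3p. Counted from 1 at the 5′ end, miR-381-3p differs from miR-300-3p by A4G, G21U and U22C, so the pair shares most of its length and not its seed. miR-376b-3p, shown above, differs from miR-376a-3p by A4G, C13A and U20G. miR-379-3p shares its seed with miR-411-3p and differs from it by U10C and U22C. The relatives that did not pass the test are shown for comparison:
miR-411-3p: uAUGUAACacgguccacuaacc
miR-376a-3p: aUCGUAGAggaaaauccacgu

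How reads that match several precursors were counted is not given in the sources used here, so values of these pairs could mix in part.

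The fibroblasts expressed nearly the whole row. Between 71 and 73 of the 77 members had at least 1 count in a library, and 3, miR-758-5p, miR-654-5p and miR-453, had none in any library. Enough counts to be tested were found for 65 members, at mean levels from 0.832 to 12233 CPM with a median of 52.5 CPM (library-scaled counts, TMM method). Of these, 25 had means of at least 100 CPM. The 12 untested members had means of at most 0.489 CPM, and no library exceeded 0.701 CPM for any of them. They were both arms of miR-299b and of miR-654, miR-453, and the 5p arms of miR-1197, miR-758, miR-495, miR-376c, miR-487b, miR-544 and miR-668. For scale, 3 counts, an approximate upper limit for a count of 0 from counting error alone, equal 0.107 to 0.289 CPM depending on the library. Mature miRNAs differ little in length, so counts were not divided by it, and unequal ligation of different sequences was not measured.

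Counts summed to 10443268 to 20595024 in the ctrl libraries and 13733970 to 28237159 in the caNrf2 libraries, and all 6 carry the same run and lane label. The cells had miRNAs of fibroblast and mesenchymal cells at high levels, the 7 listed ones summing to 412177 to 420059 CPM in ctrl and 449187 to 487777 CPM in caNrf2 libraries, with miR-22-3p called higher and both miR-199a arms called lower. Marker miRNAs of other cell types were also present and several moved with the group. All 3 tested of 4 muscle markers were higher (summed 336 to 411.8 CPM in ctrl, 546 to 723 in caNrf2). So were 4 of 6 blood cell markers (385 to 474 against 648 to 759, most of it miR-486a-5p). The same held for 3 of 5 tested neural, Schwann cell and melanocyte markers (86.8 to 104 against 652 to 825, most of it miR-138-5p). None of 6 epithelial (1011 to 1820 against 1573 to 2074 CPM) or 2 endothelial markers (116 to 165 against 147 to 170) was called. Over all 697 tested miRNAs, 14.1% were called higher and 11.6% lower. The untested members of the muscle and neural lists were near 0. miR-1a-3p had 9 counts over the 3 ctrl and 16 over the 3 caNrf2 libraries, and miR-124-3p had 8 and 9. Of the muscle markers called higher, miR-133a-3p averaged 371 CPM in ctrl and 614 CPM in caNrf2 libraries. The other muscle markers called higher were scarce: miR-206-3p averaged 3.86 and 7.93 CPM, and miR-499-5p 1.26 and 2.90 CPM. Of the blood cell markers called higher, miR-486a-5p averaged 386 CPM in ctrl and 534 CPM in caNrf2 libraries. The others were miR-142a-5p (39.6 and 143 CPM), miR-142a-3p (5.71 and 19.4 CPM) and miR-223-3p (4.01 and 15.3 CPM). Not called were miR-150-5p (3.10 and 2.87 CPM) and miR-451a (2.70 and 3.84 CPM). Of the marker lists no member was at 0 in all libraries, and the part of these cell types in the results below was not tested.

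The comparison asked which members differ between fibroblasts with active Nrf2 and controls. In the caNrf2 fibroblasts 9 of the 65 tested members fell and 1 rose when judged by edgeR's quasi-likelihood test at 0.05, its p-values adjusted after Benjamini and Hochberg over all 697 miRNAs that could be tested. The falls were small, from 19.4% for miR-300-3p to 38.7% for miR-376b-3p, and they included the most abundant product of the row, miR-411-5p. The 1 that rose was miR-666-3p. Among all tested miRNAs 11.6% were called lower and 14.1% higher. The distal shares were 13.8% lower, close to that background, and 1.54% higher. In bulk RNA, fewer cells making a miRNA and less of it per cell cannot be told apart.

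miR-411-5p, from the second precursor of the row, was the most abundant member. It measured 13546, 14015 and 14679 CPM in ctrl libraries 1, 2 and 3, and 10120, 10386 and 10653 CPM in caNrf2 libraries 1, 2 and 3. Every caNrf2 library was below every ctrl library, and the ranges within a group were narrow. Its log2 fold change was -0.44 ± 0.08 (SE, adjusted p = 0.00245, edgeR).

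miR-381-3p and miR-300-3p, the near-identical pair with different seeds, come from neighbouring precursors and stood at similar levels. miR-381-3p measured 3248, 3774 and 3861 CPM in ctrl and 2597, 2811 and 3010 CPM in caNrf2 libraries, a log2 fold change of -0.37 ± 0.09 (adjusted p = 0.0134, edgeR). miR-300-3p measured 2885, 3293 and 3215 CPM in ctrl and 2396, 2588 and 2586 CPM in caNrf2 libraries, a log2 fold change of -0.31 ± 0.08 (adjusted p = 0.0155, edgeR). Neither pair of groups overlapped, and in both the first ctrl library was the lowest of the controls. These were the least firm of the calls: without ctrl library 3 the adjusted p was 0.0596 for miR-381-3p and 0.0602 for miR-300-3p, and without caNrf2 library 3 it was 0.0513 for miR-300-3p.

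miR-134-5p is known from neurons, where it limits the size of dendritic spines by repressing Limk1. In these fibroblasts it measured 882, 928 and 881 CPM in ctrl and 678.7, 608 and 607.6 CPM in caNrf2 libraries. The groups lay far apart compared with their spread, and caNrf2 library 1 was the highest of its group. The log2 fold change was -0.51 ± 0.08 (adjusted p = 0.00102, edgeR).

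miR-376b-3p showed the largest fall among the called members. It measured 310.4, 310.2 and 338 CPM in ctrl and 204, 191 and 192 CPM in caNrf2 libraries, a log2 fold change of -0.71 ± 0.08 (adjusted p = 2.28e-04, edgeR). The highest caNrf2 value was well under the lowest ctrl value. The miR-376 precursors are known for adenosine-to-inosine editing in brain, which the counts used here do not resolve. miR-376c-3p, from the precursor next but one upstream, measured 186, 169 and 178 CPM in ctrl and 135.5, 134.4 and 134.2 CPM in caNrf2 libraries, with a log2 fold change of -0.40 ± 0.09 (adjusted p = 0.00799, edgeR). The 3 caNrf2 values nearly coincided and lay below all ctrl values. miR-376a-3p, 3 substitutions away from miR-376b-3p, did not pass the test: it measured 96.6, 92.0 and 109 CPM in ctrl and 77.1, 92.1 and 86.2 CPM in caNrf2 libraries, which overlap (log2 fold change -0.22 ± 0.12, adjusted p = 0.199, edgeR).

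The hairpin of Mir376b (chr12:109723458-109723539, plus strand) is shown with its mature arms in capitals, the 3p arm being the second capital run, because the levels of its arms are compared next:
Mir376b: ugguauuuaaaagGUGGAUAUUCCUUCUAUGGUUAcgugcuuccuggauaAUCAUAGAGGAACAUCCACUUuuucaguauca
From the first capital run came miR-376b-5p, at 71.7, 53.8 and 63.1 CPM in ctrl and 60.0, 51.5 and 53.5 CPM in caNrf2 libraries. Those values overlap between groups, and the log2 fold change of -0.19 ± 0.14 did not pass the test (adjusted p = 0.331, edgeR).

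At the start of the row miR-379-3p and miR-299a-3p fell as well. miR-379-3p measured 227, 232 and 232 CPM in ctrl and 180, 141 and 150 CPM in caNrf2 libraries, with a log2 fold change of -0.55 ± 0.10 (adjusted p = 0.00344, edgeR). The ctrl libraries were nearly equal and the caNrf2 libraries spread more widely, all below them. miR-299a-3p measured 424, 436 and 421 CPM in ctrl and 328.7, 346 and 338 CPM in caNrf2 libraries, with a log2 fold change of -0.34 ± 0.07 (adjusted p = 0.00573, edgeR). Its seed mate on the other strand, miR-299b-3p, stayed between 0.0963 and 0.395 CPM and was not tested. As its sequence is the start of miR-299a-3p, shortened reads of miR-299a-3p could be among these counts, which was not tested.

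Inside Mirg, miR-485-3p was the second member to fall, beside miR-134-5p. It measured 87.9, 90.4 and 91.7 CPM in ctrl and 72.1, 55.3 and 53.5 CPM in caNrf2 libraries, and its caNrf2 library 1 stood above the other caNrf2 libraries and below every ctrl library. Its log2 fold change was -0.58 ± 0.13 (adjusted p = 0.00983, edgeR). It comes from a precursor whose 5p arm, miR-485-5p, is known in neurons for repressing the synaptic vesicle protein SV2A. That arm was the more abundant one here, at 161, 219 and 204 CPM in ctrl and 172, 144 and 156 CPM in caNrf2 libraries, with overlapping groups and a log2 fold change of -0.31 ± 0.13 (adjusted p = 0.101, edgeR).

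The single rise, in miR-666-3p, went against the direction of most of the row. It measured 84.0, 88.0 and 97.8 CPM in ctrl and 145, 133 and 126 CPM in caNrf2 libraries. All caNrf2 libraries were above all ctrl libraries, and the log2 fold change was 0.58 ± 0.11 (adjusted p = 0.00319, edgeR). The other arm, miR-666-5p, measured 209, 234 and 227 CPM in ctrl and 241, 278 and 253 CPM in caNrf2 libraries. Its groups did not overlap either, but the change of 0.20 ± 0.09 did not pass the test (adjusted p = 0.127, edgeR).

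**Figure D1:**
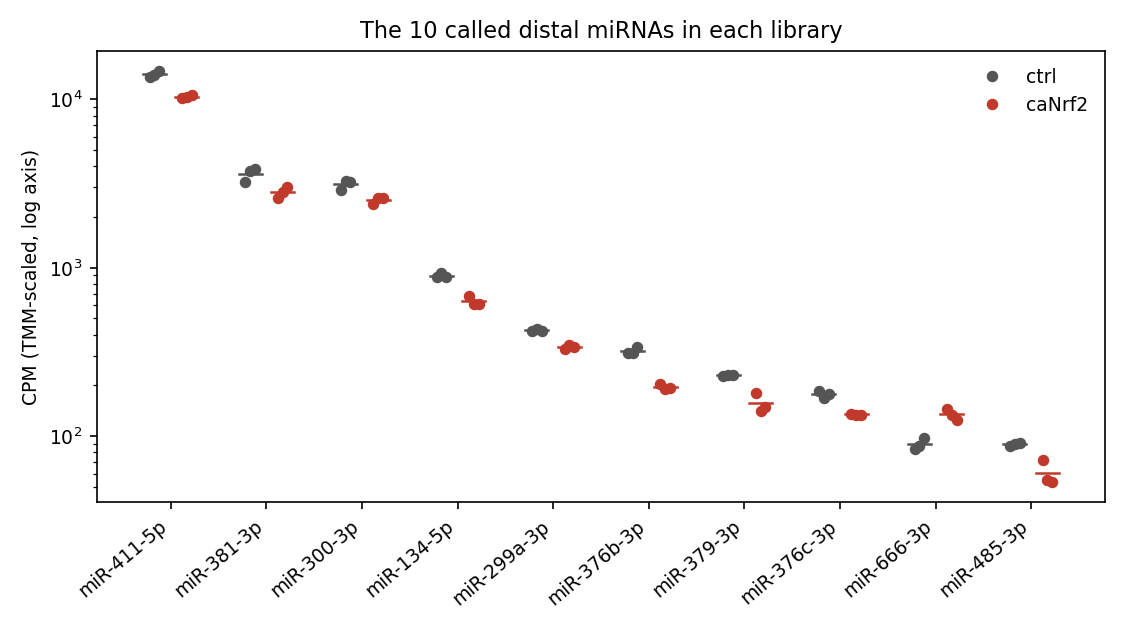
Level of the 10 members that passed the test, in CPM on a log axis, for each library; points are the 3 ctrl and 3 caNrf2 libraries and short lines the group means. The caNrf2 points lie below the ctrl points for 9 members, from 14080 to 10386 CPM on average for miR-411-5p, and above them for miR-666-3p.

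Other abundant members did not pass the test. miR-541-5p, second in abundance, measured 7808, 6113 and 7460 CPM in ctrl and 7103, 4894 and 5836 CPM in caNrf2 libraries (log2 fold change -0.26 ± 0.14, adjusted p = 0.196, edgeR). Library 2 was the lowest of each group, and the groups overlapped. miR-410-3p, which has been studied in insulin-secreting cells, measured 3166, 3715 and 3691 CPM in ctrl and 3639, 3433 and 3385 CPM in caNrf2 libraries (-0.02 ± 0.08, adjusted p = 0.916, edgeR). miR-409-3p measured 2763, 3162 and 2774 against 2811, 2525 and 2577 CPM (-0.14 ± 0.08, adjusted p = 0.257, edgeR). In both the ranges interleaved, and the sign for miR-410-3p turned with the scaling (0.01 with library totals only). miR-380-3p, at 459, 542.97 and 477 against 430, 472 and 438 CPM, also overlapped.

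miR-411-3p, the tenth most abundant member, shares its precursor with miR-411-5p and its seed with miR-379-3p. It measured 427, 317 and 368.6 CPM in ctrl and 351, 230 and 224 CPM in caNrf2 libraries. Library 1 was the highest of each group, and caNrf2 library 1 lay within the ctrl range. The log2 fold change of -0.47 ± 0.17 had an adjusted p of 0.0697 (edgeR). It was past the threshold with RLE size factors (0.0416), with DESeq2 (0.0126) and with limma-voom (0.0482). It also passed by edgeR without the filter on low counts (0.00119) and without caNrf2 library 1 (0.0063). It did not pass by edgeR with library totals (0.102), TMM without the region (0.0507) or a mean of at least 10 CPM (0.0826). Leaving out any other library gave adjusted p of 0.0628 to 0.189 (edgeR).

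Of the uncalled members, the largest negative change was that of miR-154-3p, whose precursor has been studied in lung fibrosis. It was scarce, at 6.65, 3.89 and 5.23 CPM in ctrl and 4.63, 2.78 and 3.01 CPM in caNrf2 libraries, with overlapping groups (log2 fold change -0.61 ± 0.24, adjusted p = 0.0833, edgeR). It passed the threshold without the filter on low counts (0.0116), without ctrl library 2 (0.0413) and without caNrf2 library 1 (0.0311). It did not pass by edgeR with RLE size factors (0.0591), library totals (0.103) or TMM without the region (0.0613). Nor did it pass with DESeq2 (0.0567) or limma-voom (0.083). Leaving out any other library gave adjusted p of 0.191 to 0.230 (edgeR). The largest positive one was that of miR-412-5p, at 7.51, 8.58 and 8.89 CPM in ctrl and 11.6, 10.3 and 9.41 CPM in caNrf2 libraries (0.31 ± 0.15, adjusted p = 0.147, edgeR). Its groups did not overlap. For 16 of the 65 tested distal members every caNrf2 library was below every ctrl library. Over all tested miRNAs this held for 125 of 697 (17.9%). For 3 of the 65 every caNrf2 library was above every ctrl library, and over all for 165 of 697 (23.7%). The values of the other 46 distal members overlapped.

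The members that fell were mostly abundant ones. Among the 25 distal members with a mean of at least 100 CPM, 8 fell and 1 rose, while among the 40 tested members under 100 CPM 1 fell, miR-485-3p, and none rose. Over all tested miRNAs, 49 of 194 at or above 100 CPM were called lower (25.3%, against 32% of the distal ones) and 32 of 503 below it (6.36%, against 2.5%). Called higher were 27 of the 194 (13.9%) and 71 of the 503 (14.1%). Without adjustment for multiple testing, 15 distal members were lower and 2 higher at p under 0.05, against 118 and 147 of all 697.

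Taken as a set, the tested members were tilted slightly downward. Of the 65 tested members 51 had a negative log2 fold change and 14 a positive one (78.5% negative, against 46.5% of all tested miRNAs). The median was -0.17, with quartiles at -0.31 and -0.04, and all values lay between -0.71 and 0.58. The median over all 697 tested miRNAs was 0.03, and over the 606 outside the Dlk1-Dio3 region it was 0.08. Members share a chromosome stretch and possibly a transcript, so they are not independent measurements. The median of the row stayed between -0.23 and -0.14 under all 14 alternative settings.

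**Figure D2:**
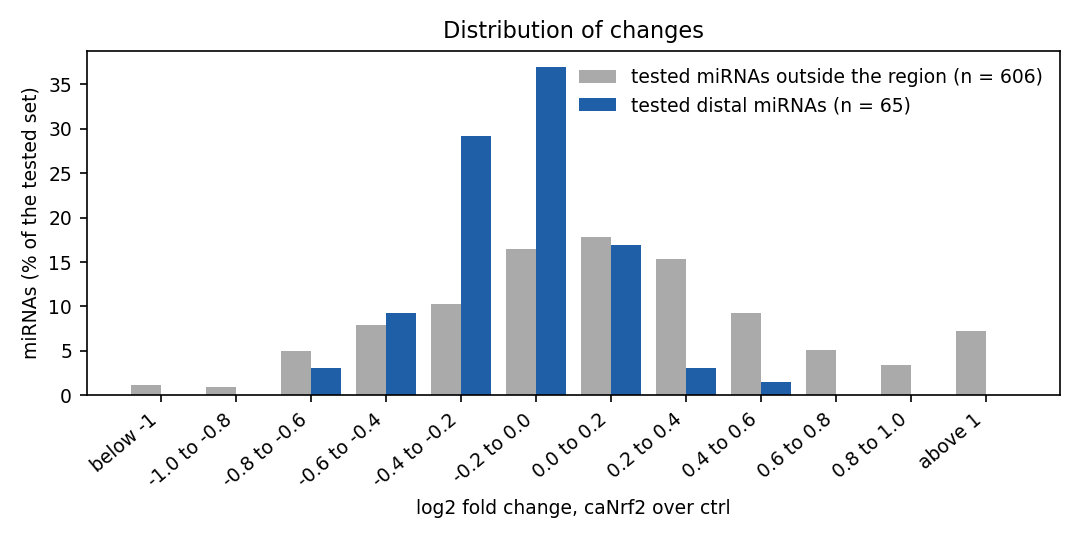
Distribution of the log2 fold changes (caNrf2 over ctrl) of the 65 tested distal members and of the 606 tested miRNAs outside the region, as a percentage of each set per bin. The distal members are narrowly spread, with a median of -0.17, while the other miRNAs spread further in both directions around a median of 0.08.

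The calls are given next by place along the chromosome, in stretches marked out after the values were seen. The borders follow the calls, so the counts carry no test and do not show an uneven spread. Over all tested miRNAs 11.6% were called lower. All 6 tested arms of the first precursors, Mir379, Mir411 and Mir299a, had negative values (median -0.42), and 3 of them passed the test. The next 13 precursors, Mir299b to Mir667, had 21 tested members with a median of -0.04, none of them called lower and 1, miR-666-3p, called higher. The 6 precursors from Mir376c to Mir381 had 9 tested members, all with negative values and a median of -0.31, and 4 passed the test. Inside Mirg, Mir382 to Mir485 had 2 of 7 called lower, and the last 10 precursors, Mir453 to Mir3072, had none of 18, although 16 of the 18 values were negative. Counted by the Mirg gene, 7 of 40 tested members upstream of it fell (median -0.15) and 2 of 25 within it (median -0.18).

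**Figure D3:**
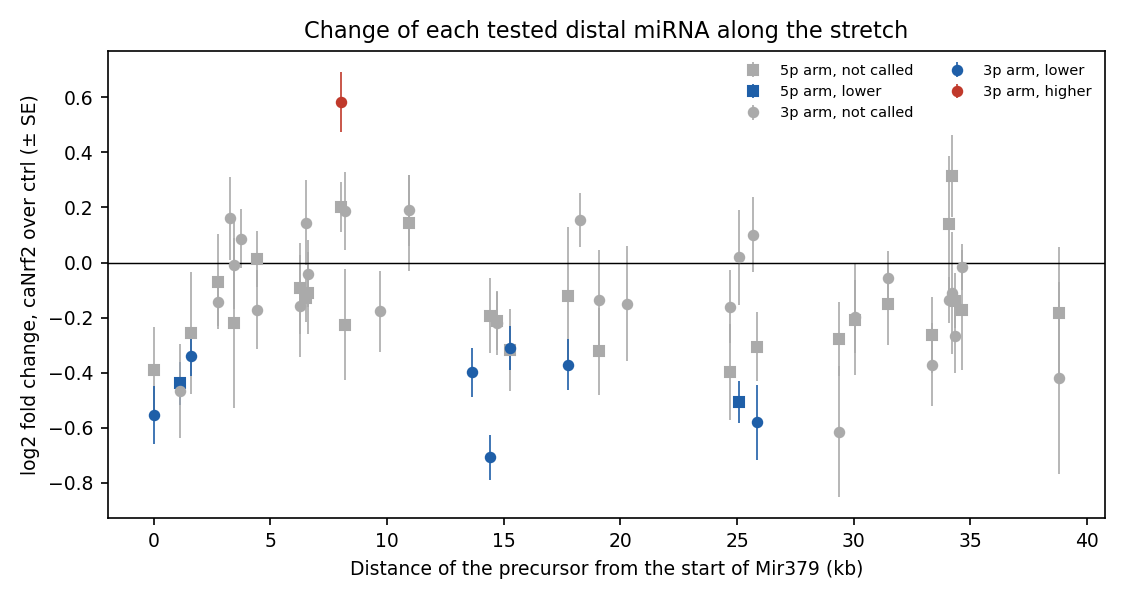
The log2 fold change (± SE) of each tested distal member against the distance of its precursor from the start of Mir379, in kb, with squares for 5p and circles for 3p arms. Blue points passed the test as lower and the red point, miR-666-3p, as higher. Most grey points lie a little below 0. From Mir299b to Mir667 the points lie on both sides of 0, with 12 of 21 values negative.

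Most precursors delivered mainly one arm. Of 38 precursors with both arms listed, 36 had at least 100 counts over all libraries; 13 of these gave mostly the 5p arm and 23 mostly the 3p arm. In 21 of the 36 the major arm exceeded the minor one more than 10 to 1, and in 5 the arms were within 2 to 1 of each other. The 5p arm made up 97.6% of the counts of miR-411, 99.9% of miR-541 and 98.6% of miR-134. It made up only 0.07% of miR-381 and 0.209% of miR-410. miR-379 gave 16.2% of its counts as 5p, miR-376b 18.8%, miR-376a 54.7%, miR-666 68.0% and miR-485 70.9%.

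**Figure D4:**
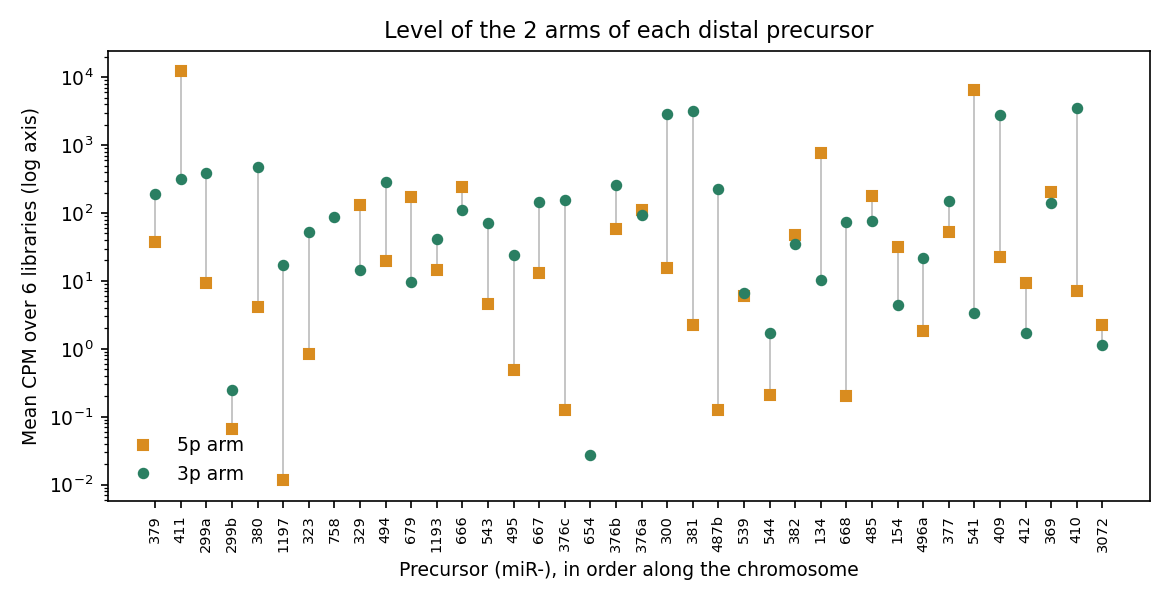
Mean CPM over the 6 libraries (log axis) of the 5p arm (squares) and the 3p arm (circles) of each precursor, in chromosomal order; an arm with no count is not drawn and a line joins the arms of one precursor. Long lines, such as those of miR-1197, miR-541, miR-487b and miR-381, mark precursors that gave almost only one arm. The lines of miR-376a and miR-539 are among the short ones.

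The arms of a precursor were also set side by side. Of 29 precursors with both arms tested, 21 had negative values for both, 2 positive values for both and 6 opposite signs, in a row where 78.5% of the tested members were negative. Of the other arms of the called members, none passed the test. miR-379-5p measured 47.1, 38.8 and 41.3 CPM in ctrl and 33.4, 37.2 and 26.4 CPM in caNrf2 libraries, without overlap (log2 fold change -0.39 ± 0.16, adjusted p = 0.0969, edgeR). miR-300-5p, at 17.1 ± 0.323 CPM (SD, n = 3) in ctrl and 13.7 ± 1.795 CPM in caNrf2, had -0.32 ± 0.15. The remaining ones were scarce, between 2.18 and 10.3 CPM on average in each group, for miR-381-5p, miR-299a-5p and miR-134-3p, and miR-376c-5p was too scarce to be tested.

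Whether the arms of a precursor changed unequally was tested on the log2 ratio of 5p to 3p with limma. None of the 211 precursors tested, or 0%, passed, among them 29 distal ones, while 28 of all and 4 of the distal ones had an unadjusted p under 0.05. The 4 distal ones were miR-376b, miR-134, miR-666 and miR-412. The 5p share of miR-376b was 16.4% ± 2.09 (SD, n = 3) in ctrl and 21.9% ± 0.745 in caNrf2 libraries, and all 3 caNrf2 libraries (22.7%, 21.2% and 21.8%) were above the ctrl ones (18.8%, 14.8% and 15.7%). Its ratio differed by 0.52 ± 0.15 on the log2 scale (adjusted p = 0.281, limma). The ratio of miR-134 differed by -0.54 ± 0.15 (adjusted p = 0.281, limma), its 5p share being 98.9% ± 0.18 in ctrl and 98.4% ± 0.13 in caNrf2 libraries. When only precursors with both arms at a mean of at least 10 CPM entered, 99 in all and 16 distal, both passed (adjusted p = 0.0415 each, limma). In that setting 4 of all 99 passed. The 3p arm of miR-134 lay at the edge of this filter, with a mean of 10.2 CPM. For miR-666, the 5p share was 71.3% ± 1.38 in ctrl and 65.6% ± 2.79 in caNrf2 libraries (adjusted p = 0.33, limma).

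Seeds within the row were mostly private. The 73 sequences held 66 seeds, 7 of which were shared by 2 members each, and 31 sequences began with u. The pair miR-376b-5p and miR-376c-5p, which differ by G19U alone, shared a seed, as did miR-379-5p with miR-1193-5p and miR-410-5p with miR-494-5p. Some members also share a seed with miRNAs of other chromosomes. The seed of miR-410-3p is that of miR-344d-3p on chromosome 7, and the pair is shown as an abundant member with a relative that rose:
miR-410-3p: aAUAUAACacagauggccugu
miR-344d-3p: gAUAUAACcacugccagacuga
While miR-410-3p measured 3524 ± 310 CPM (SD, n = 3) in ctrl and 3486 ± 135 CPM in caNrf2 libraries, miR-344d-3p rose from 22.3 ± 7.72 to 207 ± 16.2 CPM (log2 fold change 3.21 ± 0.21, adjusted p = 3.68e-06, edgeR). The seed of miR-377-5p is that of miR-672-5p on chromosome X, which rose from 39.005 ± 3.13 to 106 ± 7.16 CPM (1.44 ± 0.12, adjusted p = 2.57e-05, edgeR), while miR-377-5p measured 55.4 ± 6.99 and 50.0 ± 6.62 CPM (-0.15 ± 0.15, adjusted p = 0.493, edgeR). The other tested seed relatives found on other chromosomes did not pass the test. miR-362-3p, which shares the seed of miR-329-3p, had a log2 fold change of -0.05 ± 0.16 (adjusted p = 0.827, edgeR). miR-1983, which shares that of miR-412-3p, had -0.14 ± 0.09 (adjusted p = 0.299, edgeR). The search for seed relatives did not cover every chromosome, so others may exist.

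As a share of all miRNA counts, the 77 members held 3.92%, 4.01% and 4.11% in ctrl libraries 1, 2 and 3 and 3.56%, 3.15% and 3.27% in caNrf2 libraries 1, 2 and 3. The means were 4.01% ± 0.0934 (SD, n = 3) and 3.33% ± 0.21, a difference of -0.687 percentage points, with no overlap of the groups. Of this difference miR-411-5p made up -0.351 points, its share being 1.40% ± 0.0485 in ctrl and 1.05% ± 0.0105 in caNrf2 libraries. With 3 libraries a group an exact permutation test cannot give a p below 0.1, and no p is given for a sum over chosen members. Shares sum to the whole library, and that of miR-22-3p, the most abundant miRNA, was 17.7% ± 0.138 in ctrl and 22.3% ± 0.916 in caNrf2 libraries. Over totals without miR-22-3p, the difference in the distal share was -0.592 points. Those totals are smaller and every share of them is larger, so this value cannot be set directly against -0.687 points.

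A few members carry the row's counts. The 10 most abundant held 90.4% ± 0.153 of the distal counts in ctrl and 89.3% ± 0.464 in caNrf2 libraries. The 9 members called lower, chosen here by that call, together held 56.8% of the distal counts of ctrl libraries and the other members the rest. Those others took 1.73% ± 0.0422 of ctrl and 1.59% ± 0.207 of caNrf2 libraries, with overlapping values. The caNrf2 libraries were not alike: 48 of the 65 tested members lay above their caNrf2 mean in library 1, against 21 in library 2 and 16 in library 3. For ctrl these numbers were 21, 38 and 44. Over the 48 members with a mean of at least 10 CPM, the median coefficient of variation between libraries was 7.09% in ctrl and 8.20% in caNrf2.

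**Figure D5:**
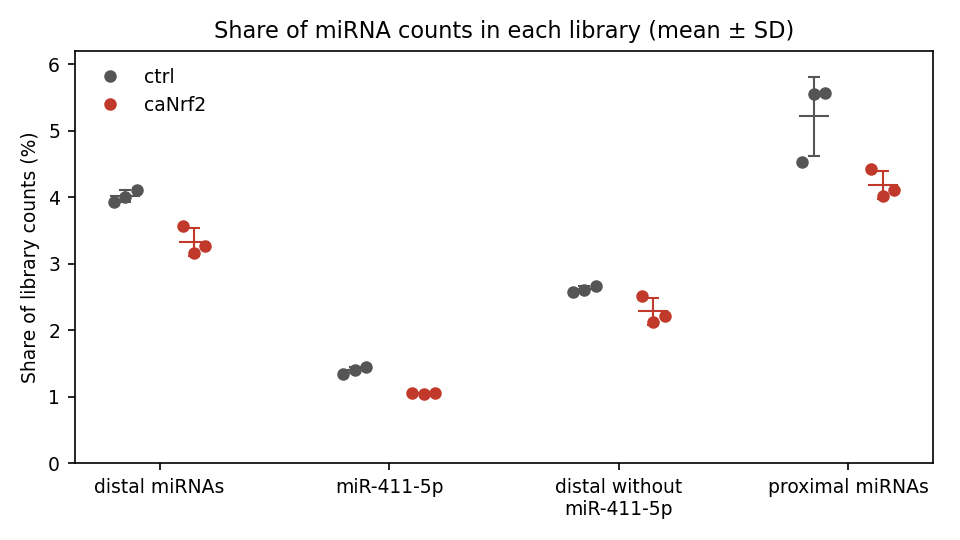
Share of each library's miRNA counts, in percent, taken by the distal members, by miR-411-5p, by the distal members without it and by the proximal members; points are libraries, bars the mean ± SD of 3 libraries. For the distal members the ctrl points lie between 3.92% and 4.11% and the caNrf2 points between 3.15% and 3.56%.

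The proximal miRNAs of the same imprinted region were read from the same fit, with no test of the difference between the sets. Of 26 tested, 6 were called lower (23.1%, against 11.6% of all tested miRNAs) and none higher (against 14.1%) by edgeR, with a median log2 fold change of -0.22 and 20 negative values (10 lower and 0 higher at an unadjusted p under 0.05). The lower ones were miR-127-3p, an antisense regulator of the paternal Rtl1 transcript, which measured 31107 ± 4216 CPM (SD, n = 3) in ctrl and 22573 ± 679.1 CPM in caNrf2 libraries (-0.46 ± 0.11, adjusted p = 0.0101, edgeR), and miR-540-3p, miR-665-3p, miR-337-5p, miR-434-5p and miR-341-3p. That count was 3 when ctrl library 2, ctrl library 3 or caNrf2 library 3 was left out. The proximal miRNAs took 5.21% ± 0.594 of ctrl and 4.18% ± 0.206 of caNrf2 library counts.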

How the data were processed

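Small RNA libraries of total RNA from primary dermal fibroblasts were analysed, 3 caNrf2 and 3 ctrl, each from a different mouse per the series' design text. The authors deposited raw counts of reads per mature miRNA, 1 file a library and 1907 names each, with no normalization. Per the submitters' processing notes the build was mm10 and the tools were edgeR, featureCounts, Bowtie, cutadapt and CASAVA 1.8. Not given in the sources used here are their settings, the miRNA annotation and the handling of reads that match several miRNAs.

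Groups came from the labels. R 4.3.3 and edgeR 4.0.16 served for the fit of all names (filterByExpr, minimum count 10, TMM, glmQLFit, glmQLFTest, group only). The 697 tested miRNAs held 99.99% of each library's counts, TMM factors were 0.984 to 1.04, and the threshold was an adjusted p of 0.05. The SE of a log2 fold change came from its F statistic. Arm ratios were tested with limma 3.58.1 on log2((5p CPM + 0.5)/(3p CPM + 0.5)). Both tests were checked on simulated data. Library pairs of a group differed by more than sampling noise (chi-square per degree of freedom 64.6 to 106). Positions came from GENCODE (mm10) and sequences from RefSeq. Without molecular identifiers, precision from counts covers counting error only.

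The members, lists and tests were chosen with earlier results of these data known. Named members were those called, their other arms and seed mates, the 10 most abundant, the 2 largest uncalled changes in each direction and precursors with a called arm ratio. Those named beside them (miR-376a-3p, the untested members, the examples of arm use, the seed relatives and the miRNAs outside the row) were named after their values were seen. Alternatives were RLE size factors, library totals, TMM without the region, limma-voom, DESeq2 1.42.0, a replicate block, leaving out each library, and filters at none or at a mean of 10 CPM. For arm ratios a pseudocount of 2 CPM, and for shares totals without miR-22-3p, were also tried.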

Additional observations from a re-analysis of the deposited data

How the results depend on the processing

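All 14 alternative settings gave 1 distal member called higher, miR-666-3p. Distal members called lower numbered 10 with RLE size factors and limma-voom, 9 with library totals, TMM without the region or a mean of at least 10 CPM, 12 with DESeq2, 11 without the filter, and 7 to 12 with 1 library left out. All 9 members called lower passed in each setting, except miR-381-3p without ctrl library 3 and miR-300-3p without ctrl library 3 or caNrf2 library 3. Correlations of deviations between the groups were 0.179, 0.165 and -0.217 for same replicate numbers and -0.378 to 0.331 for unlike ones. They gave no sign that the numbers pair the libraries, but with 3 libraries a group they cannot settle it. The fit with a replicate block called 12 lower and 1 higher, adding miR-411-3p (0.00844), miR-154-3p (0.0219) and miR-541-5p (0.0351), each an adjusted p by edgeR. Proximal miRNAs called lower numbered 3 to 7 with 1 library left out, 9 with RLE, TMM without the region, DESeq2 or the block, 8 with limma-voom and 5 with a mean of at least 10 CPM, against 6. The distal share difference lay between -0.803 and -0.599 points with 1 library left out. Arm ratios called in the row numbered 2 with both arms at a mean of at least 10 CPM, against 0.

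Members with values near 0 turned sign. miR-410-3p (-0.016) had 0.00757 with library totals and 0.00666 with a mean of at least 10 CPM. miR-134-3p (0.0184) had -0.0219 with RLE, -0.0386 with TMM without the region, -0.0289 with DESeq2 and -0.00529 with limma-voom. With 1 library left out, log2 fold changes ranged from -0.0952 to 0.0177 for miR-410-3p, from -0.318 to 0.105 for miR-381-5p and from -0.108 to 0.131 for miR-134-3p. Over the named members and alternatives 12 refits changed sign, all of them in these 3 members, 318 kept sign and side of the threshold, 13 newly passed it and 3 no longer did.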
